A study of Mus musculus with 6 samples.

Results

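The 10 immediate early genes Fos, Fosb, Junb, Jun, Egr1, Egr2, Egr3, Nr4a1, Nr4a3 and Arc were followed across 6 mouse cortex arrays. A probe set was taken as a member when the platform's probe table names exactly 1 gene for it and that gene is one of the 10. This gave 15 probe sets of the 45037 on the array that are not controls, of which 34945 name 1 gene. Of the 15, 11 had a mean intensity of at least 50 in at least 1 group and entered the fit, and they cover 9 of the 10 genes. Fosb is the gene with no probe set above that limit.

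The arrays measured RNA bound to tagged ribosomes, purified by affinity (TRAP) from the cortex of untreated BAC transgenic mice, with 3 biological replicates of each of 2 lines. In line ES691 the S100a10 gene drives the tag, and in line DU9 the Glt25d2 gene (now named Colgalt2) does; both drivers are used to reach cortical pyramidal cells. Both lines had been backcrossed from FVB onto C57BL/6 for 3 to 5 generations, and each array began with 15 ng of total RNA that was amplified in a pair of cycles. Each group is thus 1 transgenic line, the age of the mice and whether animals were pooled are not given in the sources used here, and the depositors state that the S100a10 transgene also labels some non-neuronal cells.

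Immediate early genes are switched on within minutes of a stimulus, without new protein synthesis, by factors already present in the cell. In neurons, calcium entry activates kinases that phosphorylate CREB, which binds cAMP response elements (CREs), and that activate SRF with its Elk partners at serum response elements, whose core is the CArG box. The induced proteins are mostly transcription factors, and their messages are short-lived, so their level follows recent activity.

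The stretches of 250 bases upstream of the transcription start are printed for Fos, Junb, Egr2 and Nr4a1, which stood over 2-fold above their group in S100a10 replicate 1, and for Nr4a3, which had the largest difference between the lines. The RefSeq promoter table holds 7 of the 10 genes; Egr1, Egr3 and Arc are named only. Each RefSeq sequence is on build GRCm38.p6, read 5′ to 3′ on the strand of the gene: Fos chr12:85473640-85473889 on the plus strand, Junb chr8:84978749-84978998 on the minus strand, Egr2 chr10:67537619-67537868 on the plus strand, Nr4a1 chr15:101266596-101266845 on the plus strand and Nr4a3 chr4:48045055-48045304 on the plus strand. Capitals mark the CRE half-site TGACG on either strand and, in Egr2, also the CArG box. RefSeq lists 5 starts for Egr2, and the window of start 3 is shown.
Fos: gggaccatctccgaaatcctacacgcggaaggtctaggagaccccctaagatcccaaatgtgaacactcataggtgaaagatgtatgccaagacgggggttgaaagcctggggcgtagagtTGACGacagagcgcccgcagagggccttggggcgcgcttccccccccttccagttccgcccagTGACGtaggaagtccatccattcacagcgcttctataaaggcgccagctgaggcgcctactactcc
Junb: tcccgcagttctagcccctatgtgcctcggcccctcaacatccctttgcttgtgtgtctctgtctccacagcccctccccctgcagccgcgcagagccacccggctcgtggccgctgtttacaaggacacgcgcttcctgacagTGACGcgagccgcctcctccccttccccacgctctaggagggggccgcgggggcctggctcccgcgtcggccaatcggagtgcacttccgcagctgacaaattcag
Egr2: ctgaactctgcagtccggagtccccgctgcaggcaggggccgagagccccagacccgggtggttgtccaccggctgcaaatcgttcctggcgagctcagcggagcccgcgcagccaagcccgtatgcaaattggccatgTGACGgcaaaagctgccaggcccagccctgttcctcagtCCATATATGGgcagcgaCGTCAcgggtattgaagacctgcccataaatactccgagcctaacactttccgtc
Nr4a1: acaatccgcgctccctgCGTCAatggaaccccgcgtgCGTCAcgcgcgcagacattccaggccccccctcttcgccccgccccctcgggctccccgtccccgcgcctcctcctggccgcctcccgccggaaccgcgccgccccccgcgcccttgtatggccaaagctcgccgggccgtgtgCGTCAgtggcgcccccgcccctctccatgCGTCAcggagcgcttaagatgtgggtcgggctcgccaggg
Nr4a3: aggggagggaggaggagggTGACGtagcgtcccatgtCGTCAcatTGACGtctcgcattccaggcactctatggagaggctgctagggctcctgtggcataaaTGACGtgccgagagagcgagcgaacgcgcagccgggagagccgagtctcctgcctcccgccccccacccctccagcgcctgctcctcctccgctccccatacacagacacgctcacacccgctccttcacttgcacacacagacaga

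The half-site was present in most member windows. At least 1 TGACG on either strand was found in 6 of the 7 members with a RefSeq window (Fos, Fosb, Junb, Egr2, Nr4a1 and Nr4a3), against 19.8% of 27025 genes. Nr4a1 and Nr4a3 held 4 each, and 0.777% of genes held 3 or more in a window. Fos and Egr2 held 2 each, Junb and Fosb 1 each, and Jun none; the count for Egr2 is that of start 3, and starts 1 and 2 of its 5 held none. The half-site nearest the start lay 40 bases upstream in Nr4a1, 66 in Fos, 55 in Egr2, 106 in Junb and 147 in Nr4a3. The full palindrome TGACGTCA, which contains the half-site on both strands, was in no member window and in 1.77% of genes. A CArG box was found in Egr2 alone of the 7, 72 bases upstream of start 3 and absent from the window of start 1, against 1.62% of genes. Only exact matches to CC, 6 letters A or T and GG within the 250 bases were counted. A box farther upstream or with a mismatch would be missed, so the other members are not shown to lack one. A match is a description of the letters and does not show that a factor binds there.

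Values are intensities on a linear scale, normalised by the GCRMA algorithm, and differences are on the log2 scale, S100a10 minus Glt25d2, from limma across all 21291 probe sets kept. In this fit the median gene was 0.56 higher in S100a10, so a difference of a member is read against that shift. The median array intensity was 20.4 to 21.3 in the Glt25d2 arrays and 35.5 to 35.8 in the S100a10 arrays. After quantile normalization the median gene difference was -0.02, and after centring each array on its median it was -0.21. Of all probe sets, 46.8% carried the same value on at least 2 Glt25d2 arrays, against 0.979% for S100a10. Whether both lines were normalised together is not stated, and unlike distributions in the lines leave the zero point of every difference between them uncertain. The driver genes follow the labels: S100a10 read 13064 to 17898 in its own line and 3126 to 3444 in the other, and Colgalt2 read 827 to 1352 in Glt25d2 against 11.4 to 11.7 in S100a10. The number of arrays limits the precision, since 3 against 3 cannot give an exact two-sided permutation p below 0.1. In RNA from many cells, fewer expressing cells and less RNA per cell cannot be told apart.

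By the deposited values the immediate early genes did not share 1 direction between the lines. Jun and Egr1 were higher in S100a10, Nr4a3 was higher in Glt25d2, and Fos, Junb, Egr2, Egr3, Nr4a1 and Arc did not pass the test (limma, Benjamini-Hochberg adjusted p under 0.05 over all 21291 probe sets). Counted with 1 probe set per gene, 2 of 9 were thus higher in S100a10, where 44.4% of 11821 genes were, and 1 of 9 was higher in Glt25d2, where 4.5% of genes were. The groups did not overlap for 3 of the 9, against 63.8% of genes. Over probe sets, 3 of 11 were higher in S100a10 (44.2% of all kept), 1 was higher in Glt25d2 (4.39%) and 4 did not overlap (62.7%). The median member difference was 0.28, and 2 of the 9 members, Nr4a1 and Arc, lay above the median gene. After quantile normalization none of the 9 was higher in S100a10 and 1 was higher in Glt25d2, where 18.4% of genes were in each direction. After centring the counts were 0 and 3, against 16.4% and 31.3% of genes. Without S100a10 replicate 1 they were 1 and 2, against 36% and 3.32%. With both changes, a setting chosen after seeing the data, they were 0 and 3 after quantile normalization (13.9% and 11.2% of genes) and 0 and 7 after centring (13.6% and 24.3%). In each of these settings with a count of 0 higher in S100a10, limma also gave 0 at an unadjusted p under 0.05. At that limit 1 and 5 of the 9 were lower after quantile normalization and after centring. Without S100a10 replicate 1 the counts were 3 and 9 in the same order. The share of all genes at that limit was not computed, so these counts are not a result about the members. In the last setting the median gene itself was at -0.22. Fos, Junb, Egr2, Nr4a1 and Arc spread widely among the S100a10 replicates and were 2.64-fold to 4.11-fold higher in replicate 1 than in the other 2.

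**Figure D1:**
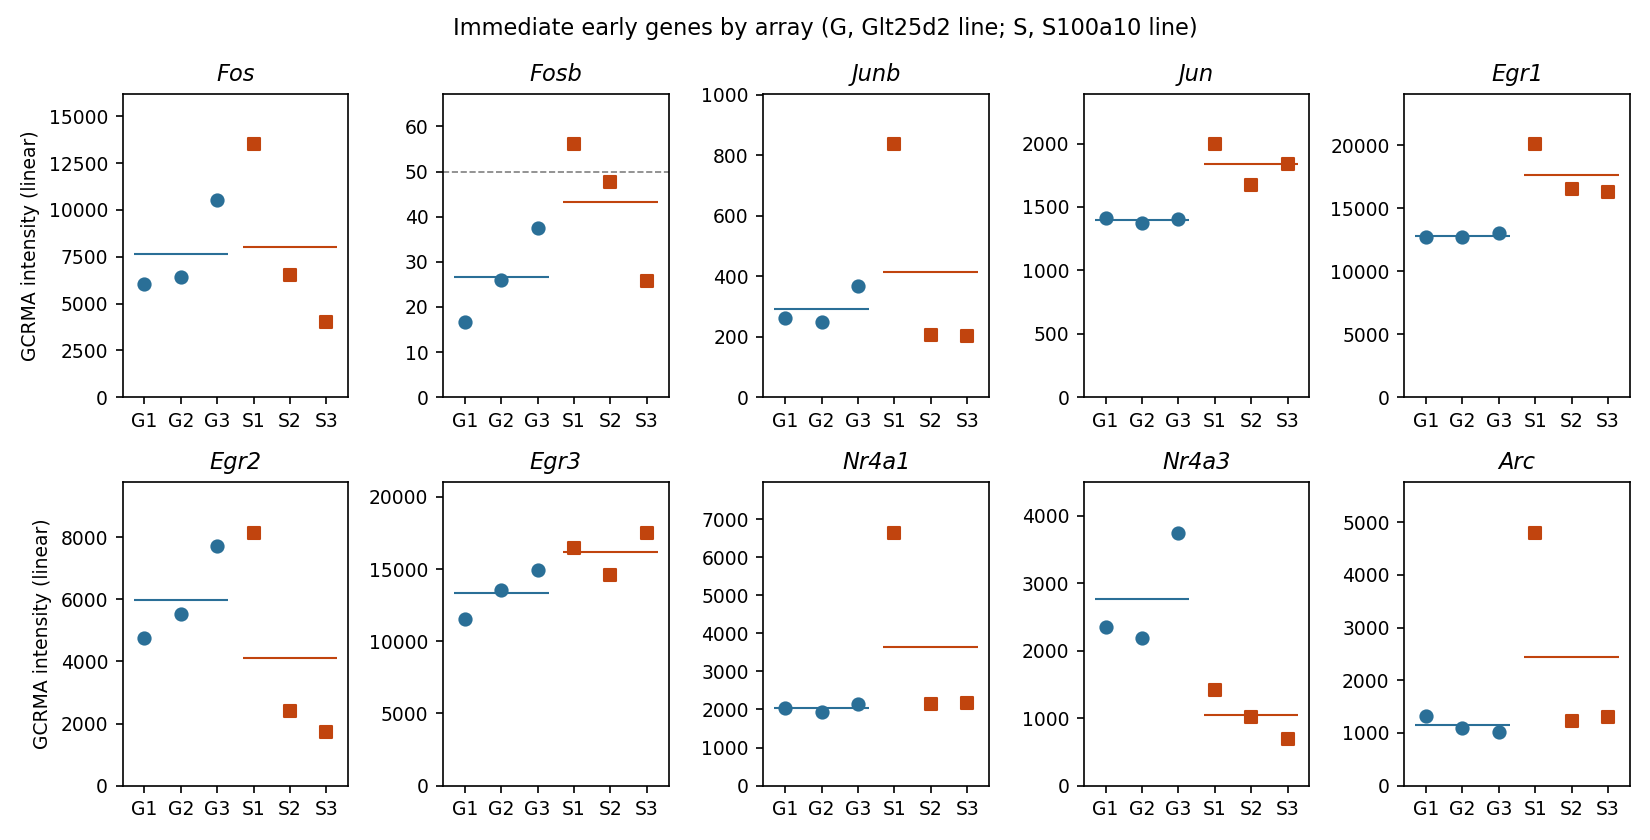
Intensity of each member on a linear axis from 0 in the Glt25d2 (G1 to G3) and S100a10 (S1 to S3) arrays, 1 point per array, with a line at each group mean. The dashed line in the Fosb panel marks 50. S100a10 replicate 1 stands above both other S100a10 arrays in Fos, Junb, Egr2, Nr4a1 and Arc, while Jun, Egr1 and Nr4a3 are the members whose groups do not overlap.

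Fos encodes the partner that Jun proteins need for the strongest form of the AP-1 factor. Its intensity was 6034, 6442 and 10537 in Glt25d2 replicates 1, 2 and 3 and 13516, 6509 and 4019 in S100a10 replicates 1, 2 and 3. The groups overlapped fully, since both the highest and the lowest array of the 6 were S100a10 arrays. The means were 7671 ± 2490 and 8015 ± 4924 (SD, n = 3), and the log2 difference was -0.07 (SE 0.48, adjusted p = 0.912 by limma). Without S100a10 replicate 1 the difference was -0.54, without S100a10 replicate 3 it was 0.34, and without Glt25d2 replicate 3 it was 0.18. It was -0.30 after quantile normalization, -0.84 after centring and -1.31 (adjusted p = 0.0508) after centring without S100a10 replicate 1, and it did not pass in any of these.

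Fosb, whose truncated product accumulates in neurons with repeated stimulation, was close to the lower end of the array. It read 16.6, 25.9 and 37.5 in Glt25d2 and 56.1, 47.7 and 25.8 in S100a10. Only S100a10 replicate 1 was above 50, and the gene was left out of the fit because neither group mean (26.7 ± 10.5 and 43.2 ± 15.7, SD, n = 3) reached that limit.

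Junb, a Jun family member that can weaken AP-1 activity of Jun, showed the same single high array. It read 262, 248 and 368 in Glt25d2 and 837, 206 and 202 in S100a10. S100a10 replicate 1 was 4.11-fold above the mean of the other S100a10 arrays, which both lay below every Glt25d2 array. The means were 293 ± 65.6 and 415 ± 365 (SD, n = 3), with a difference of 0.18 (SE 0.59, adjusted p = 0.814 by limma). The direction turned without S100a10 replicate 1 (-0.50), after quantile normalization (-0.52) and after centring (-0.59).

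Jun, the core AP-1 subunit, kept its replicates close together. It read 1411, 1372 and 1407 in Glt25d2 and 1995, 1677 and 1840 in S100a10. Every S100a10 array was above every Glt25d2 array. The difference was 0.39 (SE 0.10, adjusted p = 0.0247 by limma), which is 0.17 less than the shift of the median gene, and it became -0.04 after quantile normalization and -0.38 after centring. The call was lost without Glt25d2 replicate 1, Glt25d2 replicate 2, S100a10 replicate 1 or S100a10 replicate 3, with adjusted p between 0.0555 and 0.0872. A term for the replicate number in limma also ended it (adjusted p = 0.0851).

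A second Jun probe set moved the same way as deposited. It read 972, 972 and 953 in Glt25d2 and 2036, 1243 and 1412 in S100a10. Glt25d2 replicates 1 and 2 carried the same value here, so the SE and adjusted p rest partly on a repeat. The arrays again did not overlap, but on this probe set S100a10 replicate 1 was 1.54-fold above the other S100a10 arrays, against 1.14-fold on the first. The difference was 0.66 (SE 0.20, adjusted p = 0.0360 by limma), 0.19 after quantile normalization and -0.11 after centring. It lost its call without Glt25d2 replicate 1, Glt25d2 replicate 2 or S100a10 replicate 3, and in limma with a term for the replicate number (adjusted p = 0.0664).

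Egr1, a zinc finger factor that rises with synaptic activity and plasticity, was higher in S100a10 by the deposited values. It read 12717, 12717 and 12998 in Glt25d2 and 20085, 16486 and 16271 in S100a10. Glt25d2 replicates 1 and 2 carried the same value, as 46.8% of probe sets did on at least 2 Glt25d2 arrays. The SE and adjusted p below rest partly on that repeat. The groups did not overlap, and S100a10 replicate 1 was again the highest, 1.23-fold above the other S100a10 arrays. The difference was 0.45 (SE 0.12, adjusted p = 0.0231 by limma), 0.11 below the shift of the median gene. It was 0.27 (adjusted p = 0.135) after quantile normalization and turned to -0.32 (adjusted p = 0.0914) after centring. Without Glt25d2 replicate 1 or Glt25d2 replicate 2 it missed the threshold (adjusted p = 0.0713 and 0.0768). Egr1 also missed it in limma with a term for the replicate number (adjusted p = 0.0778).

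Egr2, a related zinc finger factor also known for its part in myelination, had the widest range of any member in S100a10. It read 4747, 5516 and 7713 in Glt25d2 and 8149, 2412 and 1726 in S100a10. S100a10 replicate 1 lay above every Glt25d2 array and the other S100a10 arrays lay below every one of them. The means were 5992 ± 1539 and 4096 ± 3527 (SD, n = 3), and the difference was -0.86 (SE 0.60, adjusted p = 0.280 by limma). Without S100a10 replicate 1 it was -1.52 (adjusted p = 0.0166), which passed. A second Egr2 probe set read 1567, 2001 and 2190 in Glt25d2 and 3442, 1010 and 745 in S100a10. Its pattern was the same, with S100a10 replicate 1 at 3.97-fold the other S100a10 arrays and a difference of -0.47 (SE 0.58, adjusted p = 0.530) that became -1.13 (adjusted p = 0.020) without that array.

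Egr3, a further member of the zinc finger family that is needed for the development of muscle spindles, did not show the high array. It read 11574, 13575 and 14936 in Glt25d2 and 16454, 14568 and 17523 in S100a10. The groups overlapped in the lowest S100a10 and the highest Glt25d2 array, and S100a10 replicate 1 was 1.03-fold the other S100a10 arrays. The difference of 0.28 (SE 0.14) did not pass (adjusted p = 0.149 by limma), and after centring it was -0.49 (adjusted p = 0.0425). The other Egr3 probe set stayed under 50 on every array, with means of 10.8 ± 0.0968 and 29.1 ± 2.01 (SD, n = 3).

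Nr4a1, an orphan nuclear receptor induced by depolarisation, was similar on 5 arrays and high on the other. It read 2048, 1936 and 2154 in Glt25d2 and 6643, 2131 and 2158 in S100a10. The high value was S100a10 replicate 1, at 3.10-fold the other S100a10 arrays, which lay close to the Glt25d2 range. The difference was 0.61 (SE 0.46, adjusted p = 0.314 by limma), 0.07 without that array, 0.26 after quantile normalization and -0.16 after centring.

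Nr4a3, a receptor of the same family that binds the same DNA element, was the member with the largest difference between lines. It read 2349, 2189 and 3747 in Glt25d2 and 1410, 1022 and 687 in S100a10. Every Glt25d2 array was above every S100a10 array, by a 2.69-fold difference of the log means. The difference was -1.43 (SE 0.33, adjusted p = 0.0159 by limma), or -1.99 relative to the median gene. It passed after quantile normalization (-1.85) and after centring (-2.20) and without S100a10 replicate 1 (-1.68), and missed the threshold without S100a10 replicate 2 (adjusted p = 0.0537). Nr4a3 also missed it in limma with a term for the replicate number (adjusted p = 0.0582). S100a10 replicate 1 was the highest of its group here too, by 1.68-fold, yet below all Glt25d2 arrays. Both other Nr4a3 probe sets read between 4.57 and 7.04 on every array and carry no measure of it.

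Arc encodes a protein that goes to active dendrites and helps to remove AMPA receptors from synapses, and it is the one member here that is no transcription factor. It read 1321, 1091 and 1028 in Glt25d2 and 4804, 1236 and 1298 in S100a10. S100a10 replicate 1 was 3.79-fold the other S100a10 arrays, both of which lay inside the Glt25d2 range. The means were 1147 ± 154 and 2446 ± 2042 (SD, n = 3), and the difference was 0.79 (SE 0.55, adjusted p = 0.276 by limma). Without S100a10 replicate 1 it was 0.15, and it was 0.35 after quantile normalization and 0.02 after centring.

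**Figure D2:**
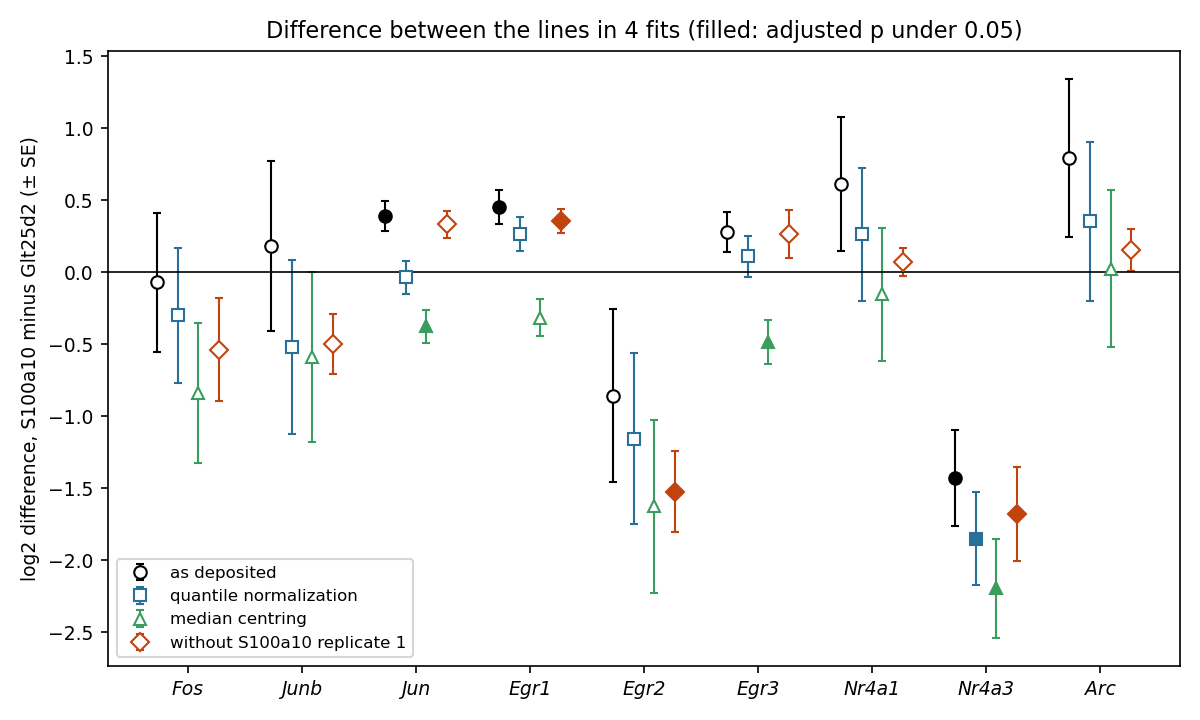
Log2 difference, S100a10 minus Glt25d2, of each member with its standard error, as deposited, after quantile normalization, after centring and without S100a10 replicate 1; filled symbols have an adjusted p under 0.05. Nr4a3 lies below 0 in all 4 fits shown, at -1.43 as deposited, while Jun goes from 0.39 to -0.38 after centring.

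The SD of log2 intensity over the 3 arrays separates the members from the rest of the array in S100a10 only as a description, since 3 arrays cannot test a spread. Its median was 0.88 for the 9 members in S100a10 and 0.16 for all genes, while in Glt25d2 it was 0.19 for the members and 0.20 for all genes. It was larger in S100a10 than in Glt25d2 for 8 of the 9 members, all but Egr3, and for 40.0% of genes. Values repeated between Glt25d2 arrays, as for Egr1, can lower the SD there. At least 2 arrays shared a value for 46.8% of probe sets in Glt25d2 and 0.979% in S100a10. The S100a10 SD was 1.18 for Junb and for Egr2, 1.11 for Arc, 0.94 for Nr4a1 and 0.88 for Fos. Between 0.127% and 0.371% of kept probe sets had one as large. Jun, Egr1 and Egr3 had values of 0.13, 0.17 and 0.14, near the median gene, and Nr4a3 had 0.52.

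**Figure D3:**
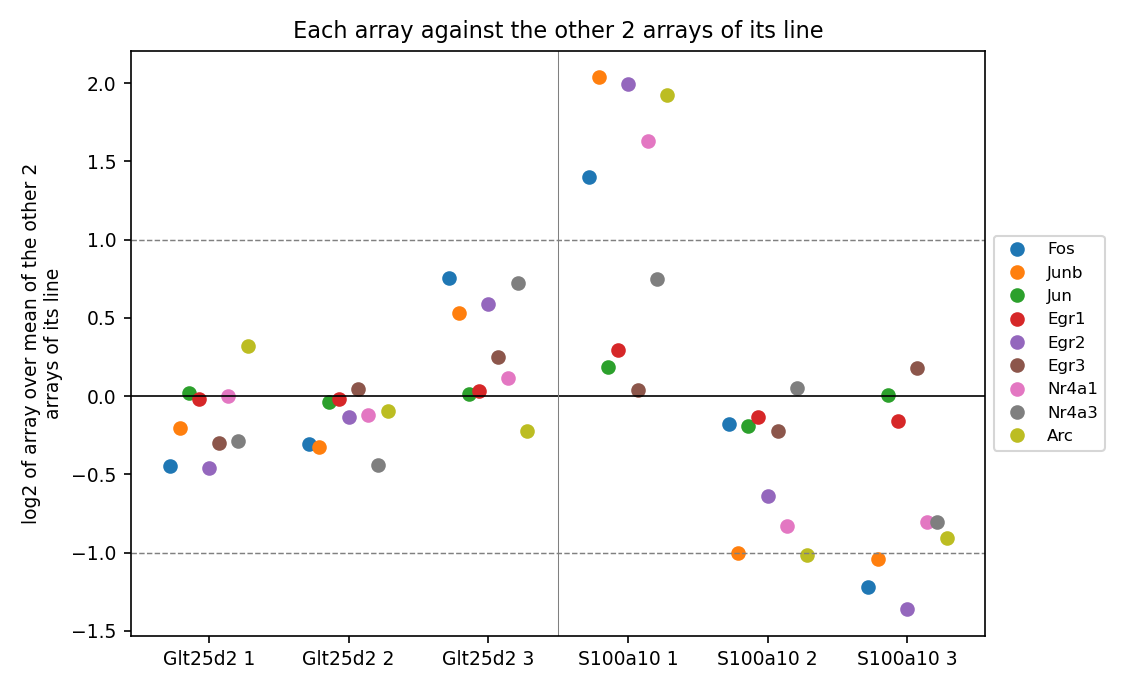
Log2 of each array over the mean of the other 2 arrays of its line, 1 point per member, with dashed lines at 2-fold. In S100a10 replicate 1, Fos, Junb, Egr2, Nr4a1 and Arc lie above the upper line, and the median member is at 1.40.

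For the members 1 array stood apart. S100a10 replicate 1 was over 2-fold above the mean of the other S100a10 arrays for 5 of the 9 members, Fos, Junb, Egr2, Nr4a1 and Arc, and for 33 of 11821 genes, or 0.279%. It was the highest S100a10 array for 8 of the 9 members, against 38.4% of genes. It was also the highest of all 6 arrays for 7. No share of genes was computed for that count, and the median gene was 0.56 higher in S100a10. The median member stood 1.40 above the other S100a10 arrays on the log2 scale, and the median gene 0.03. No other array had a member over 2-fold above its group; such genes made up 8.85%, 8% and 0.905% in Glt25d2 replicates 1, 2 and 3 and 0.271% and 0.0761% in S100a10 replicates 2 and 3. No member was over 2-fold below in S100a10 replicate 1, where 0.203% of genes were. S100a10 replicate 3 had 3 members over 2-fold below its group, where 0.169% of genes were, and S100a10 replicate 2 had 1, where 0.228% were. In both cases the mean of the other 2 arrays includes replicate 1, so these counts are not separate from its excess. In Glt25d2 no member was over 2-fold from its group on any array, although 0.508%, 0.0254% and 14.5% of genes were over 2-fold below in replicates 1, 2 and 3. Glt25d2 replicate 3 was the highest Glt25d2 array for 7 of the 9 members, as it was for 50.2% of genes. This is 1 array against 2, so no test of it is given.

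Ranked by that excess, the 11821 genes open with activity-regulated genes. Npas4, a neuronal factor induced by calcium entry, was first at 4.93-fold, with 475 in replicate 1 against 114 and 81.4. Dusp1, a phosphatase that turns off MAP kinases, was second at 4.35-fold, with 9376 against 2053 and 2262. Junb, Egr2, Arc and Nr4a1 took places 3 to 6, and Fos took place 13. Ier2 was at place 7 with 3.04-fold, and Trib1, Atf3, Cebpd, Egr4, Maff, Btg2 and Gadd45g were also among the 33. In all, 5 of the 33 were members, 10 were in the related lists described next and 18 were in none, such as Zfp36l2 (875, 369 and 386) and Ppp1r3c (3074, 1435 and 1476). Of those 18, 5 were kept only through this array, while none of the members or listed genes among the 33 was. Npas4, Dusp1 and the genes named after them were chosen after their values were seen.

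**Figure D4:**
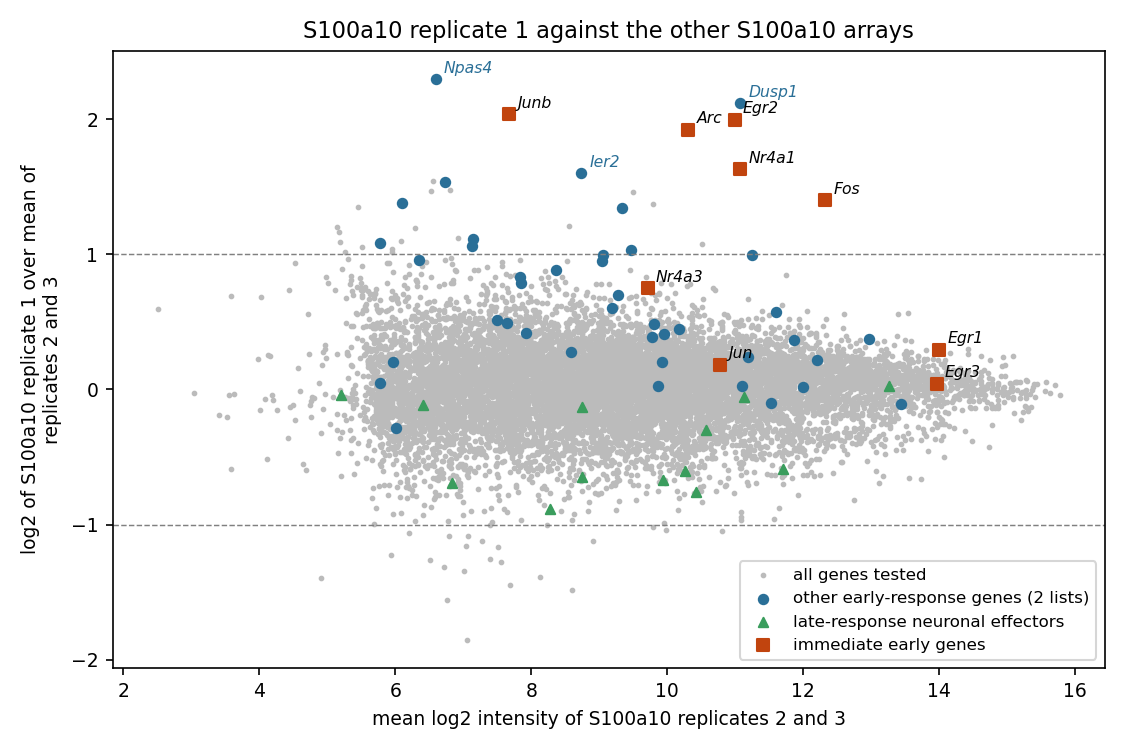
Log2 excess of S100a10 replicate 1 over the mean of the other S100a10 arrays, plotted against the mean log2 intensity of replicates 2 and 3, 1 point per gene; dashed lines mark 2-fold. Npas4, Dusp1, Junb, Egr2, Arc and Nr4a1 are the highest points, and the median of the 11821 genes is 0.03.

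The median excess of S100a10 replicate 1 was -0.12 for neuronal markers, -0.23 for interneuron, -0.21 for mural cell and fibroblast, -0.12 for endothelial, -0.55 for microglial, -0.30 for astrocyte and -0.45 for oligodendrocyte markers. It was 0.15 for the 3 measured ependymal and choroid plexus markers, of which Ttr stood at -1.56. Other single markers also went against their list. The microglial Aif1, 1 of 4 measured, was at 0.78, and the astrocyte genes Aldh1l1 and Gfap were at 0.32 and 0.23. The endothelial value is the median of 2 markers, Cldn5 at -0.33 and Esam at 0.09. The array's median intensity of 35.5 was within the 35.5 to 35.8 of its group. No label separates it from the other S100a10 arrays.

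Between the lines the marker lists are read against the 44.4% of genes higher in S100a10 and 4.5% higher in Glt25d2. After quantile normalization 18.4% of genes were in each direction, and after centring 16.4% were higher and 31.3% lower in S100a10. For mural cells and fibroblasts 7 of the 8 measured markers were higher in S100a10 and 1, Rgs5, was lower, also after quantile normalization and after centring, and their summed intensity was 8214 to 10433 against 728 to 910. Neuronal markers summed to 92167 to 93170 in S100a10 and 67358 to 71162 in Glt25d2, with 4 of 8 higher in S100a10 and none lower, a share near that of all genes; the counts were 3 and 1 after quantile normalization and 2 and 2 after centring. Neurod6 and Tbr1, which mark cortical excitatory neurons, were present in both lines, and so was the interneuron gene Gad1, at 8838 to 14661. Slc17a7, the vesicular glutamate transporter of cortical pyramidal cells, read 134, 138 and 46.1 in Glt25d2 and 373, 472 and 397 in S100a10. Oligodendrocyte markers summed to 3557 to 5410 in S100a10 and 7293 to 11085 in Glt25d2, with 2 of 5 lower and none higher, and 3 lower under both other scalings. Of 4 microglial markers 1 was higher in S100a10, with sums of 504 to 798 against 292 to 470. Of 6 astrocyte markers 1 was higher and 2 were lower (sums of 12441 to 17664 against 9331 to 16259), and of 6 interneuron markers 1 was higher (none after centring) and 1 lower (15560 to 19452 against 12244 to 18242). Of 7 endothelial markers 2 were measured and 1 was lower in S100a10 (both under the other scalings), with sums of 118 to 126 against 160 to 562. Ependymal and choroid plexus markers summed to 611 to 928 in S100a10 and 94.5 to 102 in Glt25d2, and all 3 measured were higher, against 1 of 3 after quantile normalization and after centring. No marker was listed at 0. The part of these cells in the differences of Jun, Egr1, Nr4a3 and the gene lists described next was not tested.

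Of the other inducible transcription factors, 19 of 20 were measured. Of them 6 were higher in S100a10, 1 was higher in Glt25d2 and 12 did not pass, with a median difference of 0.56; among all genes 44.4% were higher and 4.5% lower. The list's median was -0.20 after quantile normalization and after centring, each with 5 higher and 3 lower. Among all genes 18.4% were in each direction after quantile normalization, and 16.4% were higher and 31.3% lower after centring. Klf4 and Klf2, zinc finger factors that vascular endothelium and many other cells induce, were higher by 2.38 (SE 0.45, adjusted p = 0.00755) and 2.26 (SE 0.38, adjusted p = 0.00466). The leucine zipper factors Cebpd and Cebpb were higher by 2.11 (adjusted p = 0.00747) and 2.07 (adjusted p = 2.54e-04). These 4 passed the test after quantile normalization and after centring as well. Nr4a2, the remaining Nr4a receptor, was the gene higher in Glt25d2, with a difference of -1.01 (SE 0.15, adjusted p = 0.00278), the direction of Nr4a3. Ier2, at 1.15, did not pass. Maff was under 50 on every Glt25d2 array and averaged 75.5 ± 36.1 (SD, n = 3) in S100a10, a mean at 1.51-fold that limit. Its S100a10 arrays read 116, 65.2 and 45.6, so replicate 3 was under 50 as well. Maff did not pass (adjusted p = 0.0760 by limma). Its fit passed without S100a10 replicate 3 and turned to -0.03 after quantile normalization. In S100a10 replicate 1 this list stood 0.48 above the other S100a10 arrays by its median, with 6 genes over 2-fold above and 15 of 19 highest there. Of all genes 0.279% were over 2-fold above and 38.4% were highest there.

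Feedback regulators and early effectors, 22 of 23 measured, include phosphatases and RNA-decay factors that end the response. Of them 8 were higher in S100a10, none was higher in Glt25d2 (1 at an unadjusted p under 0.05) and 14 did not pass, with a median of 0.46, against the 44.4% and 4.5% of all genes. The RNA-decay factors Zfp36l1 and Zfp36 were higher by 2.78 (adjusted p = 2.23e-04) and 2.28 (adjusted p = 8.13e-04). Ier3 was higher by 2.60 (adjusted p = 3.36e-04) and the antiproliferative gene Btg1 by 1.39 (adjusted p = 1.46e-04). Trib1 and Ptgs2, at 0.95 and -0.82, did not pass; Trib1 read 78.7 on all 3 Glt25d2 arrays and passed without S100a10 replicate 1 (0.44), and Ptgs2 passed without Glt25d2 replicate 3 (-1.95). Dusp1 had a difference of -0.01 (adjusted p = 0.993), and without S100a10 replicate 1 it was -0.71 (adjusted p = 0.00713). After quantile normalization the counts of this list were 4 higher and 3 lower with a median of -0.06, where 18.4% of genes were in each direction. After centring they were 5 and 6 with a median of -0.31, against 16.4% and 31.3% of genes. Its median excess in S100a10 replicate 1 was 0.54, and 18 of 22 were highest there, against 38.4% of all genes.

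Late-response neuronal effectors, many of which appear hours after a stimulus and not all of which need new protein, did not share the high array. Of the 13 of 15 measured, 3 were higher in S100a10, 1 was higher in Glt25d2 and 9 did not pass, with a median of 0.58 (-0.06 after quantile normalization and -0.19 after centring); the shares over all genes were 44.4% and 4.5%. In S100a10 replicate 1 their median was -0.59 relative to the other S100a10 arrays. This array was the highest S100a10 array for none of the 13, against 38.4% of all genes. Cartpt, a neuropeptide precursor, averaged 269 ± 116 (SD, n = 3) in S100a10 and was under 50 on every Glt25d2 array, so it was at least 5.38-fold higher against that limit (adjusted p = 0.00172). Mmp9, a matrix protease, was at least 1.43-fold higher in Glt25d2, where it averaged 71.6 ± 0.204 (SD, n = 3), since every S100a10 array was under 50 (adjusted p = 4.08e-04). Pmepa1 was higher by 1.56 (adjusted p = 0.0160) and the neurite growth gene Nrn1 by 0.92 (adjusted p = 0.00115), and neither passed after centring. Pmepa1 also missed the threshold without any 1 of the S100a10 arrays (adjusted p = 0.0583 to 0.0587). Vgf and Plat, at 1.76 and 1.75, did not pass, and without Glt25d2 replicate 3 they were 0.27 and 0.34. That array was over 2-fold below its group for 9 of the 13, and for 14.5% of all genes.

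Of the upstream kinases and factors, 21 of 25 were measured. Of them 11 were higher in S100a10, none was higher in Glt25d2 (also 0 at an unadjusted p under 0.05) and 10 did not pass, with a median of 0.34. Among all genes 44.4% were higher in S100a10 and 4.5% were higher in Glt25d2. The median excess of S100a10 replicate 1 was 0.09 and no gene was over 2-fold above, where 0.279% of all genes were. Single genes ran from -0.45 for Camk2a to 0.56 for Nfatc3. Nfatc3, a calcium-regulated factor, was higher by 3.13 (adjusted p = 1.05e-04) against a Glt25d2 value of 68.0 that was the same on all 3 arrays. Map2k2, the kinase MEK2 of the ERK cascade, was higher by 1.60 (adjusted p = 1.64e-04). The SRF partners Elk4 and Elk3 were higher by 1.25 (adjusted p = 2.72e-04) and 1.20 (adjusted p = 0.00133). Repeated Glt25d2 values enter here too: Elk4 read 271 on all 3 arrays and Elk3 read 99.2 on replicates 1 and 2. Under both other scalings Elk3 missed the threshold. Camk2a and Rps6ka3, at -0.43 and 0.31, did not pass as deposited. Camk2a passed after quantile normalization (-0.88, adjusted p = 0.0230), after centring (-1.20, adjusted p = 0.00461) and without S100a10 replicate 2 (-0.60). The kinase Rps6ka3 passed without Glt25d2 replicate 3 (0.52) and was -0.13 after quantile normalization and -0.46 after centring. The list's counts were 3 higher and 1 lower after quantile normalization, with a median of -0.12, where 18.4% of genes were in each direction. After centring they were 4 and 11, with a median of -0.43, against 16.4% and 31.3% of genes.

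**Figure D5:**
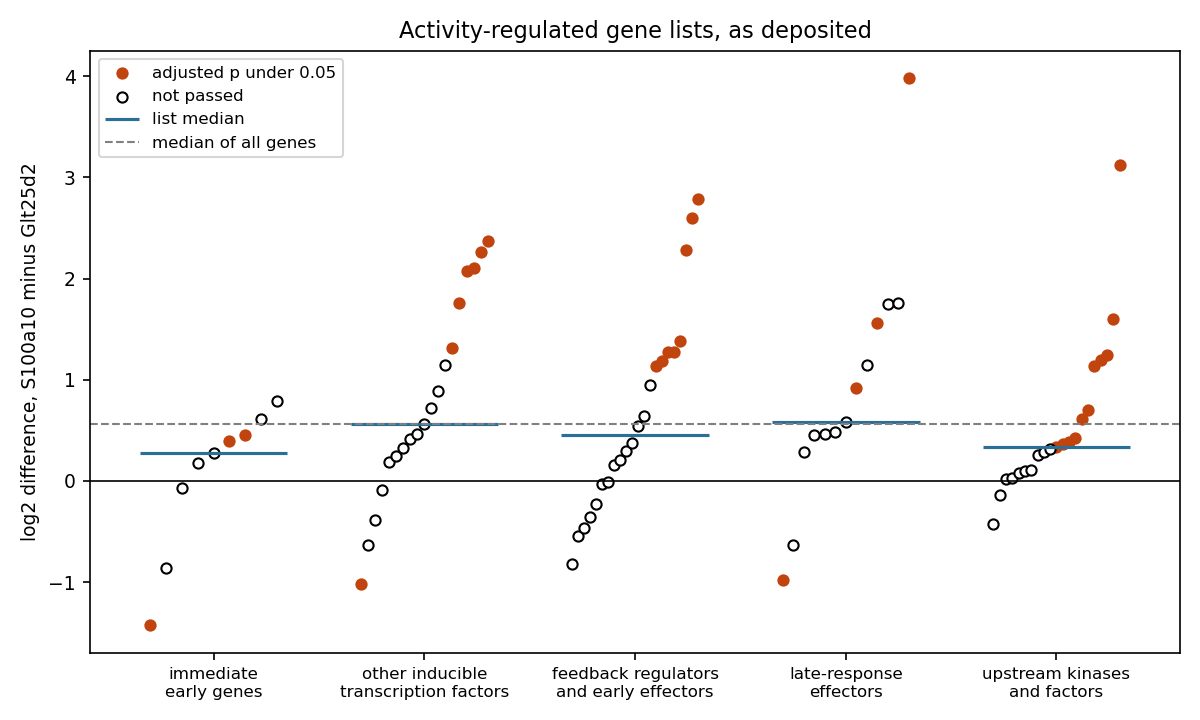
Log2 difference, S100a10 minus Glt25d2, as deposited, 1 point per gene, for the members and the related lists, with list medians and a dashed line at the median of all genes. The medians are 0.28 for the members, 0.56, 0.46, 0.58 and 0.34 for the lists in the order drawn, and 0.56 for all genes.

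The members fall into patterns of their own when each gene is centred on its mean over the 6 arrays and likeness is the root mean square difference of log2 values. Jun and Egr1 were the closest pair of members at 0.066, followed by Jun and Egr3 at 0.14, Egr1 and Egr3 at 0.18, and Nr4a1 and Arc at 0.18. Arc had Nr4a1 as its nearest gene of 11820, and then Trib1 at 0.19, Atf3 at 0.21, Prdm16 at 0.31, Btg2 at 0.32 and Stmnd1 at 0.34. Fos, which also varied among the Glt25d2 arrays, had Tiparp (0.25), Cip2a (0.26), Stk17b (0.27), Dusp6 (0.29) and Hes1 (0.29) nearest, with Junb at rank 13. Nr4a3 was the member farthest from both, at rank 6460 from Fos and 10724 from Arc. Of the genes near Arc, Trib1 and Atf3 each had a single repeated value on the 3 Glt25d2 arrays, so their likeness there is to a constant. Prdm16 and Stmnd1 were under 50 on 5 of the 6 arrays and passed the filter through S100a10 replicate 1, so the filter itself made their pattern like that of Arc.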

How the data were processed

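RNA bound to tagged ribosomes from 6 mouse cortex samples, 3 of each line, was hybridised to 1-colour Affymetrix arrays. The deposited table holds 1 linear intensity per probe set and array, normalised by the authors with GCRMA per the submitters' processing notes, which give no version. The sorted log2 values differed by 0.45 to 0.51 on average between arrays of different lines and by 0.017 to 0.081 within a line. No scanner files were used.

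From the 45101 probe sets, 64 controls were left out, and a probe set was kept where either group mean reached 50, after the limit the depositors advise. Log2 intensities, with no pseudocount, went into a two-sided limma fit (version 3.58.1, R 4.3.3) with lmFit and eBayes, no covariate, and Benjamini-Hochberg adjustment over 21291 probe sets. Tables were made with Python 3.11.15. Each gene is represented by the brightest of its kept probe sets on the log2 scale. The fit was tested on simulated data.

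The text names all members and drivers, per list up to 4 called and 2 uncalled genes, taken by size of difference, and the 5 non-members nearest to Fos and to Arc. Members, lists and motifs were chosen with earlier results of these data known. Alternatives were quantile normalization, median centring, a floor of 50, a pseudocount of 16, other filters, a trended prior, 1 probe set per gene, a replicate block and each array left out. Both normalizations without S100a10 replicate 1 were added after seeing the data. The titles call the replicates biological. S100a10 titles add a letter to the replicate number that is not explained. The depositors advise restricting work to a list of probe sets in their paper, which was not used here.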

Additional observations from a re-analysis of the deposited data

How the results depend on the processing

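The counts turned on how the arrays were scaled. Of all probe sets, 9405 were higher in S100a10 and 934 in Glt25d2, or 91.0% of calls to S100a10. Quantile normalization gave 3574 and 4128 (46.4%), median centring 3363 and 6447 (34.3%), no filter 19640 and 5131 (79.3%), 1 probe set per gene 5285 and 542, and quantile normalization without Glt25d2 replicate 3 4770 and 5130. With S100a10 replicate 1 left out, quantile normalization gave 2673 and 2490 and centring 2735 and 4963; these 2 settings were chosen after seeing the data. Leaving out 1 array gave 7354 to 11720 and 610 to 1276. Of the member probe sets, 3 were higher in S100a10 and 1 in Glt25d2; no filter gave 5 higher, and quantile normalization, quantile normalization without either array, centring and centring without S100a10 replicate 1 gave 0. Lower in S100a10 were 3 after centring, 8 after centring without S100a10 replicate 1, 4 after quantile normalization without it, and 0 to 3 when 1 array was left out, when 0 to 3 were higher.

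The factor list, with 6 higher and 1 lower, had 3 lower after quantile normalization (with and without Glt25d2 replicate 3) and after centring. Quantile normalization and centring, each with S100a10 replicate 1 left out, gave 5 and 6 lower. The feedback list, with 8 and 0, had 4 higher and 3 lower after quantile normalization. Quantile normalization with Glt25d2 replicate 3 left out gave 4 and 4, and with S100a10 replicate 1 left out it gave 4 and 6. After centring the counts were 5 and 6, and after centring without S100a10 replicate 1 they were 4 and 10. With 1 array left out and no other change, 0 to 1 were lower. The late-response list, with 3 and 1, had 1 higher in both centred settings, 2 lower after centring, 5 after quantile normalization without Glt25d2 replicate 3, 0 where both means had to reach 50, and 1 to 3 lower with 1 array left out. The upstream list, with 11 and 0, had 3 higher in all 3 quantile settings (1 lower in those 2 that keep S100a10 replicate 1), 4 and 11 after centring, 3 and 5 after centring without S100a10 replicate 1, and 7 to 12 higher and 0 to 1 lower with 1 array left out.

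Of 196 member values under 18 alternatives, 146 kept their direction and side of the threshold and 25 turned. Fos ran from -0.54 to 0.34 with 1 array left out. Junb was -0.52 after quantile normalization, -0.32 without Glt25d2 replicate 3 as well, -1.23 without S100a10 replicate 1 as well, -0.59 after centring and -1.27 with both, and -0.50 to 0.53 with 1 array left out. In that order Jun was -0.037, -0.036, -0.088, -0.38 and -0.44. The second Jun probe set was -0.016 after quantile normalization without S100a10 replicate 1, -0.11 after centring and -0.31 with both. Centring gave -0.32 for Egr1, -0.49 for Egr3 and -0.16 for Nr4a1, and without S100a10 replicate 1 -0.42, -0.51 and -0.70, and -0.62 for Arc; quantile normalization without it gave -0.30 for Nr4a1 and -0.31 for Arc. The cause was not tested.

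The labels do not say whether arrays with the same replicate number were prepared together. Same-numbered arrays had correlations of deviations of -0.45, 0.22 and -0.24. These cannot decide it, since the deviations of 3 arrays from their own mean depend on each other. With the replicate block 7457 probe sets were higher in S100a10 and 558 in Glt25d2, the members had 0 in either direction (limma, with 2 higher and 1 lower genes at an unadjusted p under 0.05; Jun, Egr1 and Nr4a3 kept their differences of 0.39, 0.45 and -1.43, with adjusted p of 0.0851, 0.0778 and 0.0582), and the upstream list had 7 higher.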
